A study of Mus musculus with 4 samples.

Results

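The 39 genes described here encode the contractile, calcium handling and energy proteins of skeletal muscle, and they were read in RNA from whole mouse mammary glands. They were chosen as a list of fast and slow fibre sarcomere genes, sarcomere genes shared by both fibre types, calcium handling genes and muscle metabolism genes, by function. All 39 had a probe on the array, among 18951 genes with a named probe. All 39 were well above background on all 4 arrays and passed the filter on dim probes, which 13205 genes passed in all.

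Glands came from female mice aged 13 weeks, before tumours had formed, and every sample carried the Δ16HER2 transgene, a human HER2 receptor lacking an exon by splicing. The WT group is 2 arrays (WT 1 and WT 2) labelled wild type for stathmin, and the STM KO group is 2 arrays (STM KO 1 and STM KO 2) labelled as stathmin knockouts. The promoter that drives the transgene, the deleted part of the stathmin gene, the strain and any pooling of animals are not given in the sources used here. The labels do not say that the arrays of a group came from separate animals, so p-values measure only the spread between these samples. Cy3-labelled RNA of 1 sample was hybridised to each array. The share of spots well above background ran from 54.7% to 66.2%, no spot was saturated, and 2 arrays per group limit the precision of every value.

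Skeletal muscle fibres contract when calcium released from the sarcoplasmic reticulum binds troponin on the thin filament and lets myosin pull on actin. Fast and slow fibres use different genes for the same parts, so that each has its own myosin heavy chain, myosin light chains and troponin subunits, and a muscle's mix of fibres sets the mix of these transcripts. The mammary gland is mostly fat and epithelium and its own contractile cells are myoepithelium and smooth muscle, while skeletal muscle lies against it in the body wall and under the skin.

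The fast fibre genes read at similar levels on all 4 arrays, whereas 5 of the 6 slow fibre genes differed by 15.8-fold to 24.7-fold between the highest and the lowest array. The slow genes kept the same order on the arrays, WT 1 highest, then STM KO 1, WT 2 and STM KO 2, so that each group held a high and a low array. No muscle gene passed an adjusted p of 0.05 between STM KO and WT in limma's test. Levels are log2 signals relative to the 75th percentile of their own array, and fold changes are STM KO minus WT on that scale.

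Many muscle genes are known to carry E-boxes, the short sites of myogenic factors such as MyoD, in the bases before their start. To show what the fast and slow genes hold there, the 250 bases before the start are printed for the slow and the fast form of troponin C, for slow troponin T and for muscle creatine kinase, 5′ to 3′ on the gene's strand. They come from RefSeq on build GRCm38.p6, and capitals mark each CANNTG.
Tnnc1, chr14:31208062-31208311, plus strand: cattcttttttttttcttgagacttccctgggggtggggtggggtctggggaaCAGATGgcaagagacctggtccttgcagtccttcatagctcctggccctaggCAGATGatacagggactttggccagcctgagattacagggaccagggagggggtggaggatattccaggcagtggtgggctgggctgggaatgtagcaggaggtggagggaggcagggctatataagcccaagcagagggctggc
Tnnt1, chr7:4515976-4516225, minus strand: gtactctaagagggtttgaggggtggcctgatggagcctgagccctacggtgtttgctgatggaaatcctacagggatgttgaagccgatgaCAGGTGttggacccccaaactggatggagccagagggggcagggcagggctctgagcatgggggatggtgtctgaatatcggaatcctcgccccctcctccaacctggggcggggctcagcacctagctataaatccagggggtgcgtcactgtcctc
Tnnc2, chr2:164779735-164779984, minus strand: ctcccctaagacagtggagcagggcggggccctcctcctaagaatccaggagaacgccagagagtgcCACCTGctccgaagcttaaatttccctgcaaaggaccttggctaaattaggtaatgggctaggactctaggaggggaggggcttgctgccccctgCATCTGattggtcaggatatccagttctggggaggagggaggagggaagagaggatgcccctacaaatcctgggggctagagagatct
Ckm, chr7:19410844-19411093, plus strand: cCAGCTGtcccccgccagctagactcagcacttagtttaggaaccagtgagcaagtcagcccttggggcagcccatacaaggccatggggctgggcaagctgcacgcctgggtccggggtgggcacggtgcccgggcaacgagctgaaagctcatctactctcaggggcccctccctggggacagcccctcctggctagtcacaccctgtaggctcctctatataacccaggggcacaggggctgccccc

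Tnnc1 and Tnnc2, the slow and fast troponin C genes, held 2 E-boxes each, and Tnnt1 and Ckm held 1 each. RefSeq gave such a window for 30 of the 39 genes, in 37 windows. CANNTG, searched on both strands, was in 30 of 37 windows (81.1%), against 66.2% of all 32851 windows of this length. CAGCTG, which is 1 form of the E-box and is counted within it, was in 17 of 37 (45.9%), against 13.0%. The Ckm window holds this form and the Tnnc1, Tnnt1 and Tnnc2 windows do not.

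Of the other muscle motifs, CATTCC, the MCAT site, was in 10 of 37 windows (27.0%), against 12.6% of all windows. The MEF2 motif was in 5 of 37 (13.5%), against 1.69%, and the CArG motif, bound by serum response factor, was in 5 of 37 (13.5%), against 1.47%. The slow genes had 9 windows, of which 9 held an E-box and 0 the MEF2 motif. The fast genes had 7 windows, of which 5 held an E-box and 2 the MEF2 motif. A match says only that these letters are in the window, and its absence says nothing of the factor.

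The slow fibre list holds Myh7, the slow and cardiac myosin heavy chain, the slow light chains Myl2 and Myl3, and slow troponin T, I and C (Tnnt1, Tnni1 and Tnnc1). Myh7 (NM_080728) read 6.08 on WT 1, 3.21 on WT 2, 5.38 on STM KO 1 and 1.83 on STM KO 2. Its processed signals were 13000, 1340, 12100 and 572 in the same order. WT 1 and STM KO 1 were high and WT 2 and STM KO 2 were low, so the groups overlapped. WT 1 was 7.33-fold above WT 2 and STM KO 1 was 11.7-fold above STM KO 2. The groups differed by -1.04 ± 1.43 in log2 units (SE, n = 2 arrays in each; limma adjusted p = 0.942).

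Myl2, the slow regulatory light chain, had the widest range of the list. It read 4.67 on WT 1, 2.50 on WT 2, 3.87 on STM KO 1 and 0.05 on STM KO 2. The highest array was 24.7-fold above the lowest, with 4.49-fold between the WT arrays and 14.1-fold between the STM KO arrays. The groups overlapped, and the log2 fold change was -1.63 ± 1.38 (SE, limma adjusted p = 0.935).

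The troponin subunits, which hold the calcium switch of the thin filament, followed the same order. Tnnc1, whose promoter is printed above, read 2.57, -0.10, 1.63 and -1.62 on WT 1, WT 2, STM KO 1 and STM KO 2. Tnnt1 read 4.61, 1.77, 3.44 and 0.62, and Tnni1 read 2.18, -0.78, 1.43 and -2.33. In all 3 the high arrays were WT 1 and STM KO 1, and the groups overlapped. WT 1 was 6.37-fold above WT 2 for Tnnc1, 7.14-fold for Tnnt1 and 7.78-fold for Tnni1. STM KO 1 was 9.47-fold above STM KO 2 for Tnnc1, 7.06-fold for Tnnt1 and 13.6-fold for Tnni1. Their log2 fold changes between the groups were -1.23 ± 1.32, -1.16 ± 1.26 and -1.15 ± 1.497 (SE), with limma adjusted p-values of 0.937, 0.938 and 0.942.

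Myl3, the essential light chain of slow and ventricular muscle, kept the order but ranged less on its brighter probe. It read 4.79 on WT 1, 3.54 on WT 2, 4.07 on STM KO 1 and 3.34 on STM KO 2, a range of 2.73-fold, and STM KO minus WT was -0.46 ± 0.50 (SE). Its second probe read -1.79, -4.64, -2.07 and -5.39, and was well above background on WT 1 and STM KO 1 only. The second probes of Myh7 and Tnni1 kept the order too. That of Myh7 read 4.14, 1.09, 3.68 and -0.23, and that of Tnni1 read 1.02, -2.06, 0.37 and -3.44. The files hold no probe sequences, so whether a myosin probe also reads a closely related myosin was not tested.

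**Figure D1:**
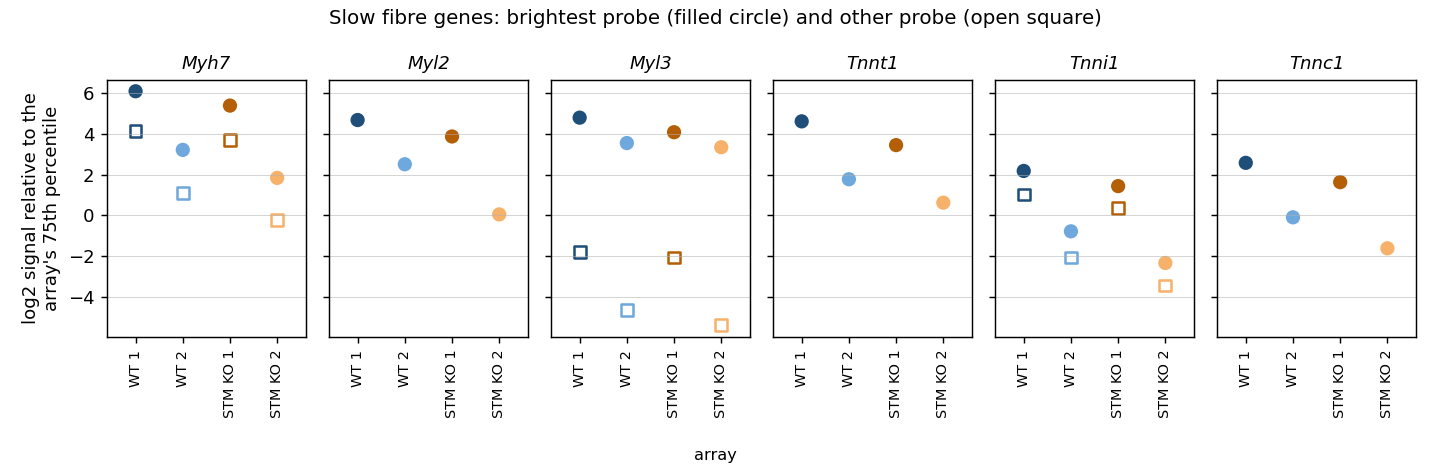
Level of each slow fibre gene on each array, as log2 signal relative to the array's 75th percentile, with 1 panel per gene, filled circles for the brightest probe and open squares for a second probe. WT 1 and STM KO 1 are the higher array of their group for all 6 genes, with Myh7 at 6.08 on WT 1 and 1.83 on STM KO 2.

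As a list, the slow genes deviated from their own means over the 4 arrays by 1.78 on WT 1, -0.67 on WT 2, 0.94 on STM KO 1 and -2.05 on STM KO 2. The group means were 0.56 ± 1.74 for WT and -0.56 ± 2.11 for STM KO (SD, n = 2 each), so the difference between the groups was smaller than the spread within either. All 6 slow genes were above 2-fold between the WT arrays, against 6.92% of all tested genes, and 5 of the 6 between the STM KO arrays, against 9.48%. No other muscle gene passed 2-fold between the WT arrays, and Neb and Pvalb did between the STM KO arrays. At 1.5-fold, 7 of the 39 muscle genes differed between the WT arrays, against 19.3% of all tested genes, and 29 of the 39 between the STM KO arrays, against 25.7%.

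A 4-fold difference in both groups, with the array numbered 1 above the array numbered 2, was found for 14 of the 13205 tested genes (0.106%). Myh7, Myl2, Tnnt1, Tnni1 and Tnnc1 were 5 of the 14, and 0 genes differed this far the other way round. The 9 others were Calca, Rspo1, Aunip, Tpx2, Ccna2, Melk, Alox12e, Id4 and Pbk. Among them, the neuropeptide gene Calca read 6.53, 0.49, 5.60 and 0.52, and the cyclin gene Ccna2 read 1.92, -0.85, 1.401 and -0.72, so both were high on the arrays where the slow genes were high. This count was made after the values were seen, and what these genes share with the slow fibre genes was not tested. The replicate numbers are not said to link samples across the groups.

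**Figure D2:**
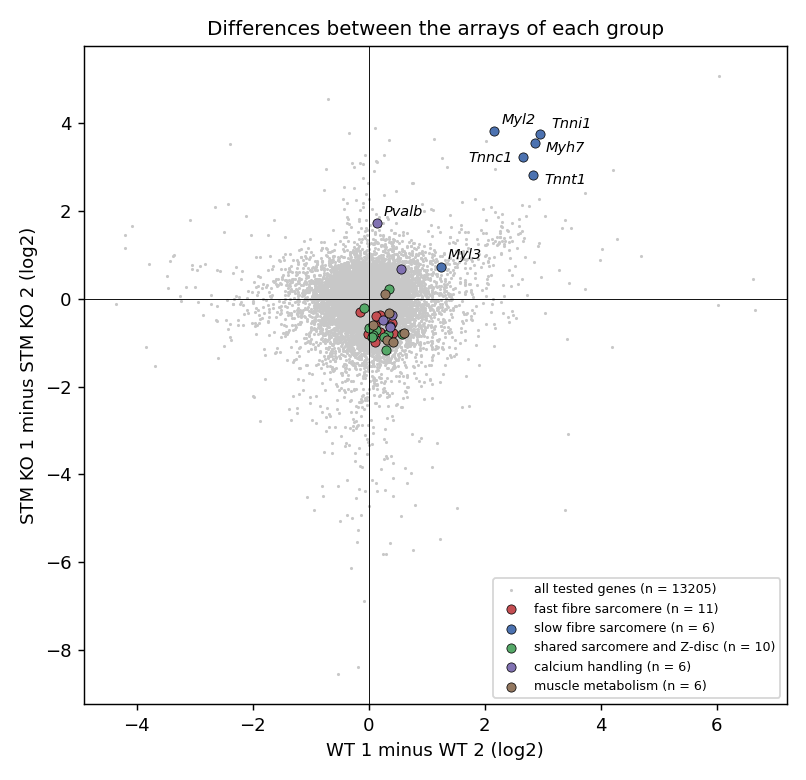
Difference between the arrays of a group for each muscle gene (coloured by list), WT 1 minus WT 2 on the horizontal axis and STM KO 1 minus STM KO 2 on the vertical axis, both in log2 units, over all tested genes (grey). The 6 slow fibre genes lie at the upper right, with Myl2 at 2.17 and 3.82, and Pvalb stands alone at 1.73 on the vertical axis.

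The fast fibre list holds the fast myosin heavy chains Myh1, Myh2 and Myh4, the fast light chains Myl1 and Mylpf, fast troponin T, I and C (Tnnt3, Tnni2 and Tnnc2), the fast α-actinin Actn3, the myosin binding protein gene Mybpc2 and the Z-disc gene Myoz1. Myh4, the heavy chain of the fastest fibres, read 7.43 on WT 1, 7.57 on WT 2, 6.94 on STM KO 1 and 7.23 on STM KO 2. Its processed signals were 33000, 27500, 35800 and 24100. Both STM KO arrays were lower than both WT arrays on the scaled values, while the unscaled signal was highest on STM KO 1, whose 75th percentile was 292 against 144 to 191 on the others. For Myh4 STM KO minus WT was -0.41 ± 0.26 in log2 units (SE, n = 2 arrays in each; limma adjusted p = 0.935).

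Tnnc2, fast troponin C, can be set beside its slow counterpart by its change across arrays. It read 7.36, 7.17, 6.56 and 7.31 on WT 1, WT 2, STM KO 1 and STM KO 2, lowest on STM KO 1, and the groups overlapped. Its range was 1.74-fold, where that of Tnnc1 was 18.3-fold. Its log2 fold change was -0.33 ± 0.33 (SE, limma adjusted p = 0.936).

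Myoz1, which ties calcineurin to the Z-disc of fast fibres, had the largest difference within a group among the fast genes. It read 5.87, 5.75, 4.995 and 5.98 on WT 1, WT 2, STM KO 1 and STM KO 2, so that STM KO 1 was low and STM KO 2 was not. Its second probe read 3.20, 4.15, 3.79 and 4.44, lowest on WT 1, and the log2 fold change was -0.32 ± 0.38 on the brighter probe and 0.44 on the second. The probes of Myoz1 therefore disagreed in direction.

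All 11 fast genes were lowest on STM KO 1, which was the lowest array for 30.2% of all tested genes. Their range over the arrays ran from 1.43-fold for Myh1 to 2.21-fold for Tnni2, with a median of 1.68-fold, against a median of 18.6-fold for the 6 slow genes and 1.54-fold for all tested genes. As a list they deviated by 0.23 on WT 1, 0.07 on WT 2, -0.47 on STM KO 1 and 0.17 on STM KO 2. The group means were 0.15 ± 0.11 for WT and -0.15 ± 0.45 for STM KO (SD, n = 2 each). The size of the low value on STM KO 1 depended on the scaling. With arrays scaled to their medians, the list's range shrank from 0.69 to 0.16. Then 6 of the 11 were lowest on STM KO 1, against 8.05% of all tested genes. With quantile normalization 9 of the 11 were, against 22.1%.

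**Figure D3:**
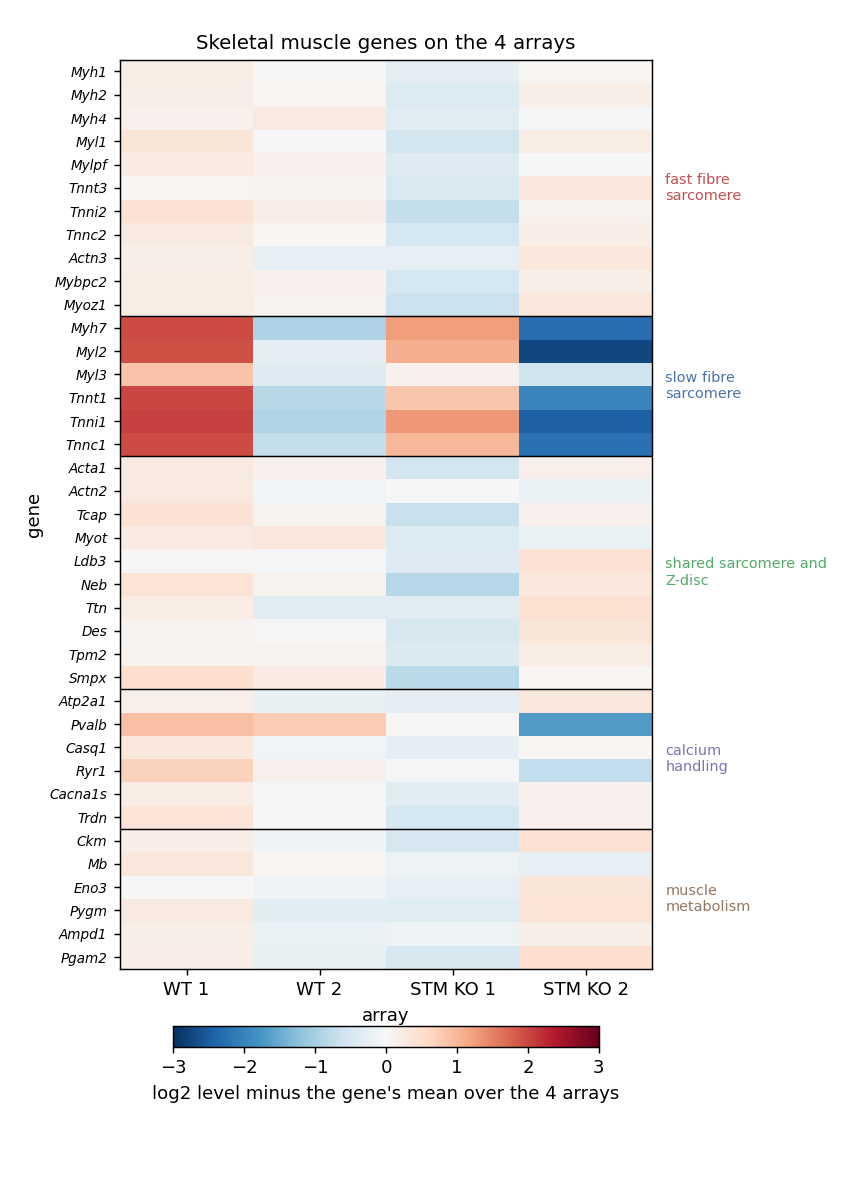
Each muscle gene (rows, grouped by role) on each array (columns), coloured by its log2 level minus its own mean over the 4 arrays. The 6 slow fibre genes change colour strongly, from 1.78 on WT 1 to -2.05 on STM KO 2 on average, and most other rows are pale with STM KO 1 lowest.

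Fast minus slow, taken from the deviations so that no probe's level is set against another's, was -1.56 on WT 1, 0.74 on WT 2, -1.41 on STM KO 1 and 2.22 on STM KO 2. WT 1 and STM KO 1 leaned to the slow genes, and WT 2 and STM KO 2 to the fast genes. The arrays of a group differed by 2.30 (WT) and 3.62 (STM KO), and the group means, -0.41 ± 1.63 and 0.41 ± 2.56 (SD, n = 2 each), differed by 0.81. That difference became -0.34 without WT 1 and -0.999 without STM KO 2, and 1.96 without WT 2 and 2.62 without STM KO 1. In whole tissue, fewer cells of a kind and less RNA per cell cannot be told apart, so these values give no count of fibres.

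The 10 sarcomere and Z-disc genes that both fibre types use ranged from 1.398-fold to 2.45-fold over the arrays. Acta1, skeletal α-actin, read 7.27 on WT 1, 7.14 on WT 2, 6.46 on STM KO 1 and 7.16 on STM KO 2. STM KO 1 alone was low, and the groups overlapped. Its log2 fold change was -0.39 ± 0.32 (SE, limma adjusted p = 0.935), and its range was 1.75-fold. Tcap, which caps titin at the Z-disc, read 7.57, 7.24, 6.46 and 7.27, again low on STM KO 1 alone, with a log2 fold change of -0.54 ± 0.36 (SE).

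Neb, the giant ruler protein of the thin filament, differed most within a group in this list, reading 4.65 and 4.36 on the WT arrays, 3.40 on STM KO 1 and 4.57 on STM KO 2. STM KO 2 was 2.25-fold above STM KO 1, and the log2 fold change between groups was -0.52 ± 0.44 (SE). Myot, myotilin of the Z-disc, differed least, reading 4.15 and 4.24 on the WT arrays and 3.49 and 3.71 on the STM KO arrays. The groups of Myot did not overlap, but its log2 fold change of -0.60 ± 0.25 (SE) had a limma adjusted p of 0.935.

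Des, the intermediate filament desmin, and Tpm2, β-tropomyosin, are also made in smooth muscle. Des read 2.82, 2.76, 2.24 and 3.101, and Tpm2 read 5.21, 5.21, 4.65 and 5.32, on WT 1, WT 2, STM KO 1 and STM KO 2. Both were lowest on STM KO 1 and highest on STM KO 2, with log2 fold changes of -0.12 ± 0.355 and -0.22 ± 0.31 (SE). That of Des changed sign with median scaling (0.074). Of the rest of the list, Smpx, a small protein of the muscle cytoskeleton, had both STM KO arrays lower (5.18, 4.92, 3.88 and 4.75). Actn2, the α-actinin found in all fibres, and Ldb3, a Z-disc adaptor, had overlapping groups, with log2 fold changes of -0.20 and 0.03.

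Ttn, the giant spring protein titin, had 8 probes, and its direction rested on which was read. The brightest read 6.70, 6.13, 6.14 and 6.93 on WT 1, WT 2, STM KO 1 and STM KO 2, lowest on WT 2, with a log2 fold change of 0.11. The 7 others were all lowest on STM KO 1, with log2 fold changes from -1.12 to -0.45.

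Among the calcium genes, Pvalb, the calcium buffer parvalbumin of fast fibres, stood apart on a single array. It read 3.28 on WT 1, 3.15 on WT 2, 2.42 on STM KO 1 and 0.69 on STM KO 2, with signals of 1860, 1280, 1560 and 258. Both STM KO arrays were below both WT arrays, and STM KO 1 was 3.31-fold above STM KO 2. STM KO minus WT was -1.66 ± 0.58 in log2 units (SE, n = 2 arrays in each), which had a p of 0.0341 and an adjusted p of 0.935 in limma, and became -0.80 without STM KO 2. It was the single muscle gene with an unadjusted p under 0.05, a mark passed by 3.54% of all tested genes.

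Ryr1, the calcium release channel, read 5.19, 4.63, 4.44 and 3.76, and both STM KO arrays were below both WT arrays. Its log2 fold change was -0.81 ± 0.36 (SE, limma adjusted p = 0.935), while its second probe read 4.65, 4.02, 4.01 and 4.98, highest on STM KO 2, with a log2 fold change of 0.16. The direction of Ryr1 therefore depended on the probe. Atp2a1, the fast fibre calcium pump SERCA1, read 6.89, 6.53, 6.46 and 7.08 with overlapping groups, and its log2 fold change was 0.07 ± 0.32 (SE).

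Casq1, which stores calcium in the reticulum, differed least within its groups of the calcium genes, at 3.28, 2.87, 2.66 and 3.02, with a log2 fold change of -0.24 ± 0.29 (SE). Cacna1s, the voltage sensor of the surface membrane, and Trdn, triadin, which anchors the release complex, had overlapping groups and log2 fold changes of -0.19 ± 0.29 and -0.40 ± 0.33 (SE). Both were lowest on STM KO 1.

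The metabolism genes had a median log2 fold change of 0.02 over 6 genes. Ckm, muscle creatine kinase, read 5.93 on WT 1, 5.61 on WT 2, 5.24 on STM KO 1 and 6.18 on STM KO 2, so the STM KO arrays held both the lowest and the highest value. Its log2 fold change was -0.06 ± 0.39 (SE), and it changed sign with median scaling (0.13) and normexp background correction (0.038). Pgam2, muscle phosphoglycerate mutase, also had its lowest and highest values on the STM KO arrays, at 6.25, 5.83, 5.56 and 6.55. Its log2 fold change was 0.01 ± 0.41 (SE), and it stayed positive with median scaling (0.21) and normexp (0.14).

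Mb, myoglobin, the oxygen store of oxidative fibres, differed least within its groups in this list. It read 6.91, 6.63, 6.43 and 6.32, with the STM KO arrays below the WT arrays and a log2 fold change of -0.39 ± 0.25 (SE, limma adjusted p = 0.935). Eno3, Pygm and Ampd1, of glycolysis, glycogen breakdown and purine turnover, had overlapping groups and log2 fold changes of 0.12, 0.04 and 0.03.

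Between STM KO and WT, 31 of the 39 genes had a negative log2 fold change, against 50.8% of all tested genes. The median was -0.33 over the 39 genes and -0.01 over all tested genes. With median scaling, which put the median of all genes at 0.19, it was -0.13, with 28 of 39 negative. Leaving out 1 array moved that median to -0.14 (without WT 1), -0.43 (without WT 2), -0.04 (without STM KO 1) and -0.48 (without STM KO 2). Without STM KO 1, 20 of the 39 were negative. No muscle gene passed an adjusted p of 0.05 in limma (0% of tested genes did in either direction), and 1 of 39, Pvalb, had an unadjusted p under 0.05. Both STM KO arrays were below both WT arrays for 8 of the 39 (Myh4, Mylpf, Tnni2, Myot, Smpx, Pvalb, Ryr1 and Mb), against 17.8% of all tested genes, and above for 0, against 17.7%. With this scaling the share of 8 in 39 is near its background, while 0 in 39 is below its own. With median scaling 10 were lower, against 7.07% of all tested genes, and 5 higher, against 21.2%.

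Markers of some other gland cells also had mostly negative fold changes, while those of fat cells and lymphocytes did not. Negative fold changes were found for 10 of 10 fibroblast and matrix genes (median -0.50) and 11 of 12 luminal genes (-0.42). The same held for 11 of 13 smooth muscle and myoepithelium genes (-0.29) and 9 of 10 endothelial genes (-0.21). It also held for 8 of 9 macrophage genes (-0.30) and 6 of 9 nerve and Schwann cell genes (-0.16). In the short heart and epidermis lists, 3 of 5 (-0.16) and 4 of 5 (-0.17) were negative. By contrast, 5 of 11 white fat genes (0.02), 5 of 12 brown fat genes (0.06) and 0 of 9 lymphocyte genes (2.18) were negative. The groups did not overlap, with STM KO lower, for 7 of the 10 fibroblast genes, against 17.8% of all tested genes. Against the same share, it was so for 3 of the 12 luminal genes and 3 of the 10 endothelial genes. Among the smooth muscle and myoepithelium genes it was 4 of the 13, and it was 4 of the 9 macrophage genes and 4 of the 9 nerve genes. The part of these markers in the lower muscle values was not tested.

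**Figure D4:**
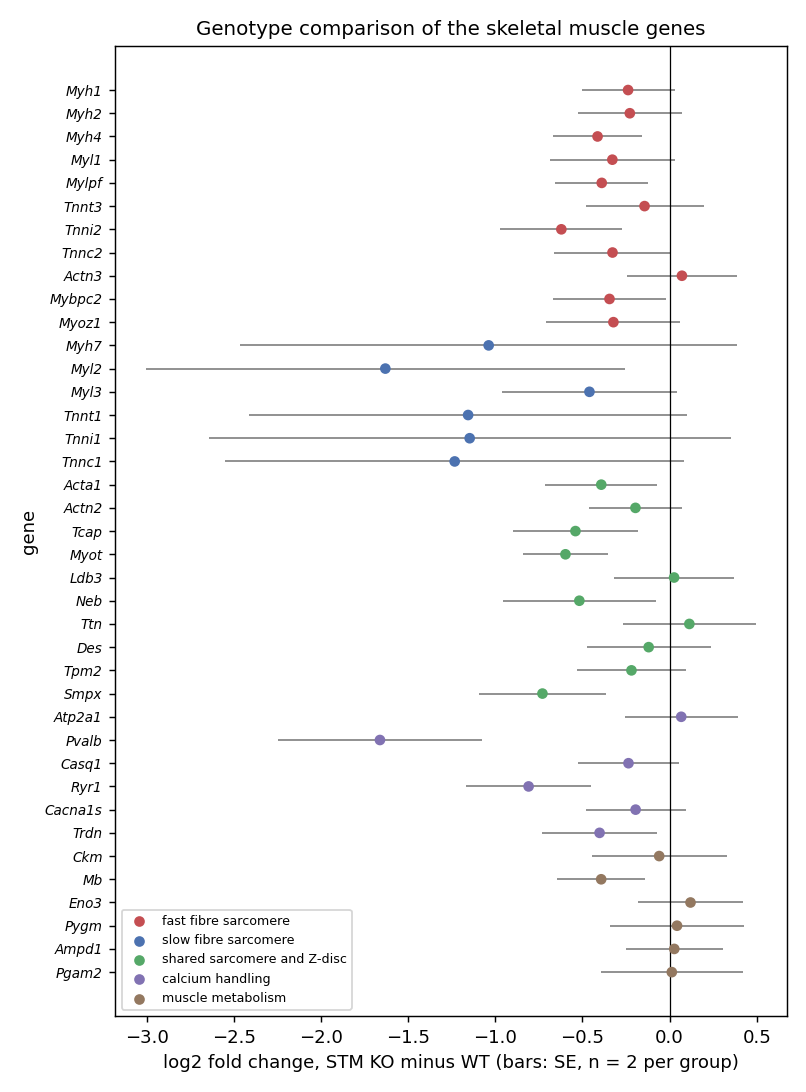
Log2 fold change of each muscle gene, STM KO minus WT, with its SE from limma, grouped by role. Error bars are longest for 5 of the 6 slow fibre genes (SE up to 1.497, for Tnni1), and no gene passed the adjusted threshold.

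Of the 39 genes, 17 had several probes, with 29 probes besides those used, and 28 of these were well above background on all 4 arrays. Of the 26 that belong to genes other than the slow ones, 25 were lowest on STM KO 1. STM KO 1 was the lowest array for 27 of the 39 muscle genes, against 30.2% of all tested genes. The count was 23 with quantile normalization (22.1% of all tested genes), 23 by the authors' deposited values (22.02%), 20 with normexp (35.9%) and 13 with median scaling (8.05%).

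Further muscle genes, from 5 lists, numbered 80, of which 79 had a named probe and 72 passed the filter. In limma 0 of 72 passed an adjusted p of 0.05 and 0 had an unadjusted p under 0.05, 53 had a negative fold change, and the median was -0.23. The largest change in each of 4 of these lists was in the ubiquitin ligase gene Fbxo32 (-1.07 ± 0.45, SE), the calcium channel adaptor Stac3 (-0.63 ± 0.32), the ADP-ribosyltransferase Art1 (-0.62 ± 0.35) and the transcription factor Mef2c (-0.80 ± 0.35). The lowest limma adjusted p among them was 0.935.

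Of the 72 further muscle genes, 6 were higher on both arrays numbered 1 than on both numbered 2, against 15.6% of all tested genes. The other way round, 8 of 72 were lower, against 17.1%, and neither count exceeds its background share. The 6 were Myoz2, Casq2, Mybpc1, Myom3, Ankrd2 and Chrne. Of these, Myoz2 and Casq2 are the slow fibre and cardiac relatives of Myoz1 and Casq1, and Mybpc1 is the slow fibre relative of Mybpc2. Myoz2 read 1.60, -0.09, 1.15 and -0.20 on WT 1, WT 2, STM KO 1 and STM KO 2. Casq2 read -1.71, -2.38, -1.48 and -2.99, highest on STM KO 1 where the slow genes were highest on WT 1. Mybpc1 read 2.41, 1.84, 2.21 and 1.59, only 1.48-fold apart on the WT arrays and 1.54-fold on the STM KO arrays. Csrp3 and Pln, also of slow and cardiac muscle, did not keep the order of the slow genes. Csrp3 read 3.73, 4.05, 4.22 and 3.62, and Pln read -3.27, -3.11, -3.71 and -3.23. The satellite cell factor Pax7 and the fusion protein gene Mymk were well above background on no array, and Myf5 on 1.

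The labelled tissue was checked against markers of the cells it could hold. Fat, luminal and myoepithelial markers were well above background: Adipoq, the fat cell hormone, read 6.70, 7.28, 6.69 and 6.75, and Krt8, a luminal keratin, read 5.25, 5.38, 5.25 and 4.65. The heart list passed the filter for 5 of 12 genes, with Nppa, Ryr2, Tbx20 and Nkx2-5 well above background on no array. The 5 that passed were Nppb, Tnnt2, Tnni3, Myl4 and Myl7. Of these, Tnni3 (signals of 33.3 to 56.3) and Myl4 (95 to 217) were well above background on all 4 arrays, and the others on 3. Myh6, the atrial myosin heavy chain beside Myh7 in the genome, was above background on 2 arrays, at 0.96, -2.96, -0.08 and -3.69, the order of the slow genes. The smooth muscle and myoepithelium list, 13 of 14 tested, deviated by 0.25, 0.02, 0.01 and -0.28, far less than the slow fibre list.

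Other cell markers differed between the arrays. Brown fat genes deviated by 0.19, -0.25, -0.02 and 0.08 (12 of 12 tested, with Cox7a1 and Cox8b also on the muscle energy list), with Ucp1 at 5.44, 5.32, 4.81 and 5.10. The epidermis and hair list, 5 of 10 tested, deviated by 1.71, -1.49, -0.18 and -0.03, so it was high on WT 1 as the slow genes were but not on STM KO 1. Fibroblast and matrix genes deviated by 0.17, 0.30, -0.15 and -0.32, lower on both STM KO arrays. The luminal list deviated by 0.35, 0.21, 0.12 and -0.67, and 11 of its 12 genes were lowest on STM KO 2, against 22.5% of all tested genes. The lymphocyte list, 9 of 10 tested, deviated by -1.07, -0.94, -1.43 and 3.44, with STM KO 2 29.3-fold above STM KO 1. STM KO 2 was also the array where the slow genes and Pvalb were lowest. The part of these markers in the muscle values was not tested.

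**Figure D5:**
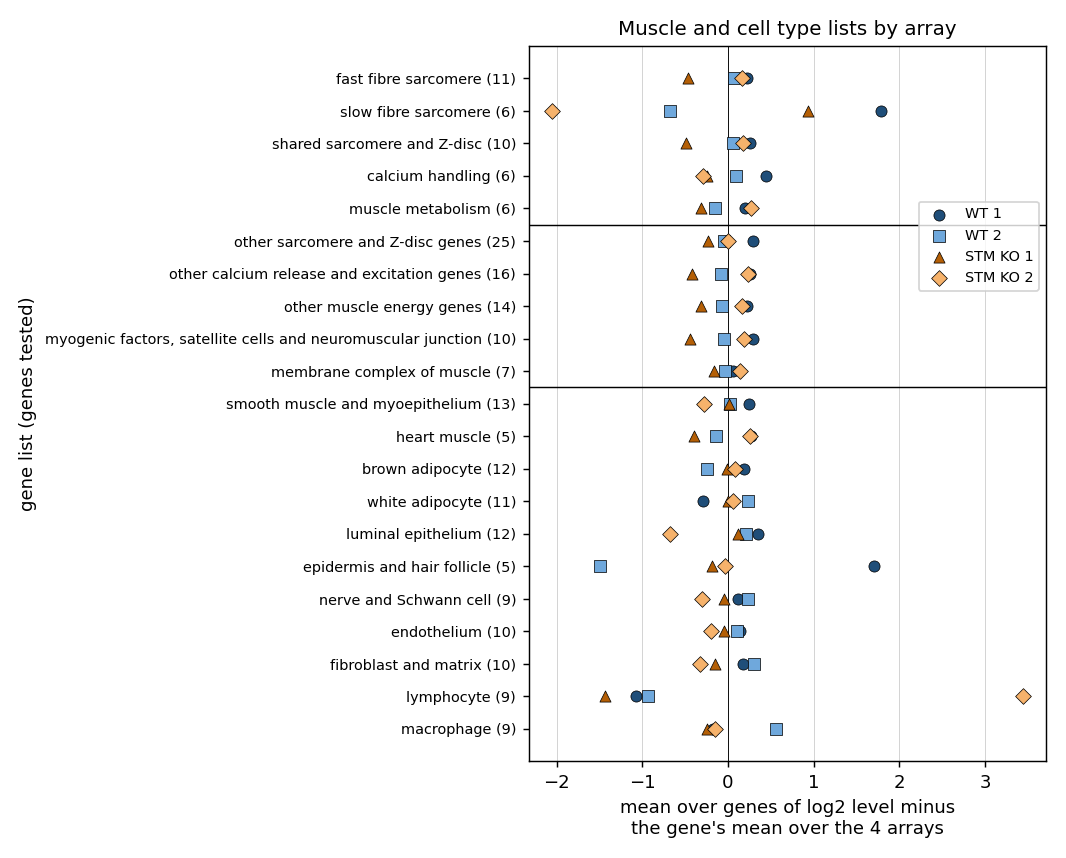
Mean over the genes of each list of the log2 level minus the gene's own mean, on each array (symbols), for the muscle lists, the further muscle genes and the cell type markers, with the number of genes tested in brackets. The slow fibre list runs from 1.78 on WT 1 to -2.05 on STM KO 2, the fast list stays between -0.47 and 0.23, and the lymphocyte list reaches 3.44 on STM KO 2.

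The targeted gene did not settle the labels. Signals of the brighter probe of Stmn1, the stathmin gene, were 9220 on WT 1, 1740 on WT 2, 6860 on STM KO 1 and 1620 on STM KO 2, which did not separate the groups, and it followed the order WT 1, STM KO 1, WT 2 and STM KO 2. The dimmer probe gave 87.6, 13.8, 5.57 and 4.84, lower on both STM KO arrays than on both WT arrays. It was well above background on WT 1 only, so it cannot settle the labels either. The arrays are therefore named by their labels throughout.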

How the data were processed

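RNA from 4 samples was read on 1-colour Agilent arrays on 1 slide in 1 scan. The authors deposited spot intensity files, made per the file headers with Agilent Feature Extraction 11.5.1.1, or 10.7.3.1 in the submitters' processing notes, and background-subtracted per the file headers. The deposited log2 value table matched quantile-normalized log2 signals centred per probe (r at least 0.99999), with column medians of -0.018, 0.0183, 0.00626 and -0.00958 for WT 1, WT 2, STM KO 1 and STM KO 2.

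Levels were computed as log2 processed signal after subtraction of the array's 75th percentile. Control spots and outlier flags (35 to 73 spots) were left out. A probe entered the test where WT 1 and WT 2, or STM KO 1 and STM KO 2, were both well above background, as 24183 of 41168 probes were. RefSeq accessions (GRCm38.p6, names only) named 27812 probes and left 13356 unnamed. The probe with the highest mean over the 4 arrays stood for a gene. Groups were compared with limma 3.58.1 (lmFit, eBayes, Benjamini-Hochberg over the 24183 tested probes; counts are over the 13205 genes) in R 4.3.3, with no covariate, and tested on simulated data. Since the files hold no mean spot signal, the normexp alternative (offset 50) used the median signal, and was added after seeing the files.

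The members, lists and tests were chosen with earlier results of these data known. By the rule for named genes, 14 genes and, in each of 5 lists, the genes with the largest and smallest difference within a group are given in full, other members by range or counts. Of the further muscle lists the gene with the largest change is named, and 1 such gene is not reported here. Alternatives covered scaling, background, dim probes, several probes per gene, a replicate block and leaving out each array.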

Additional observations from a re-analysis of the deposited data

How the results depend on the processing

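The number of arrays, 2 per group, limits every comparison, and all muscle genes were read well above background. A slide or scan block was not run, since the arrays shared 1 slide and 1 scan. No muscle gene passed an adjusted p of 0.05 under any setting run. Median scaling gave 3 genes of the whole array past it (Csn1s2a, Scrg1 and Slc6a2) and shifted the median of all genes to 0.19. It counted 10 muscle genes lower without overlap (7.07% of all tested genes), 5 higher (21.2%) and 13 lowest on STM KO 1 (8.05%). It also moved the fast list's difference to 0.0090 between the WT arrays and -0.10 between the STM KO arrays, and turned Ckm (0.13) and Des (0.074), and the cause was not tested. Quantile normalization and the authors' value table each counted 6 muscle genes lower without overlap (16.8% of all tested genes) and 1 higher (20.1% and 20.2%). Normexp turned Ckm (0.038), and the mean over probes turned Myoz1 (0.060). At 1.5-fold, 29 muscle genes differed between the STM KO arrays (25.7% of all tested genes), against 7 at 2-fold (9.48%).

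Of 160 settings of 20 named genes that kept all arrays, 156 kept their direction. Leaving out 1 array turned 17 of 80, in 12 genes. Without WT 1, Ckm was 0.10, Myh7 0.40, Tnnc1 0.10 and Myl3 0.16. Without WT 2, Atp2a1 was -0.11 and Pgam2 -0.20. Without STM KO 1, Ckm was 0.41, Tnnc2 0.047, Des 0.31, Tpm2 0.11, Myoz1 0.17 and Neb 0.068. Without STM KO 2, Myh7 was 0.73, Myl2 0.28, Tnnc1 0.39, Atp2a1 -0.24 and Pgam2 -0.48. At the other end of their ranges, with another array left out, Ckm was -0.53, Myh7 -2.81, Myl2 -3.54, Tnnc1 -2.86, Tnnc2 -0.70, Atp2a1 0.38, Des -0.55, Tpm2 -0.55, Myoz1 -0.81, Myl3 -1.08, Neb -1.10 and Pgam2 0.51. With 1 array against 2, more genes lack overlap by construction, and muscle genes without overlap numbered 8 to 30 lower and 0 to 14 higher. They were 8 lower (32.7% of all tested genes) and 2 higher (31.1%) without WT 1, and 25 (33.6%) and 0 (33.9%) without WT 2. They were 15 (32.4%) and 14 (35.4%) without STM KO 1, and 30 (38%) and 0 (33.6%) without STM KO 2. A lone array was assumed to vary like the other group.

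Same-numbered arrays did not clearly pair (r = 0.0648 across probes, over 2 pairs). The replicate block gave 0 genes past an adjusted p of 0.05 in limma and 431 with an unadjusted p under 0.05, against 468 without it, and changed no muscle gene's call.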
